A study of Homo sapiens with 7 samples.

Results

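The comparison described here set cells collected on day 7 of cardiac differentiation as CD13+/ROR2+/NKX2-5- against cells collected on day 3 as CD13+/ROR2+, which the labels call mesoderm progenitors. Both libraries were chosen by their labels alone and are 2 of the 7 in the series, 1 per group. There was therefore no replicate, no error of a value and no test, and every difference is a difference between 2 libraries. The labels give the cell type of the day 7 NKX2-5- fraction as unknown, and the question put to the data was which transcripts it held above the day 3 CD13+/ROR2+ cells, in particular those of matrix-producing, epicardial, endothelial and liver-like cells.

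The cells came from a dual-reporter line made from the H3 human embryonic stem cell line, with eGFP reporting NKX2-5, a homeobox factor of early heart cells, and mCherry reporting alpha-MHC, the myosin heavy chain encoded by MYH6. The label for the line carries a different number after NKX2 for every sample, and the libraries were treated here as coming from 1 line. The day 7 NKX2-5- fraction lacked the green reporter and carried a CD13+/ROR2+ label. The day 3 CD13+/ROR2+ fraction carried the surface aminopeptidase CD13 (gene ANPEP) and the Wnt5a receptor ROR2. All fractions had been driven toward the cardiac lineage and sorted 2 times into RNA preservative, and the labels name no other treatment or added allele. The other libraries were undifferentiated hESC on day 0, day 3 CD13-/ROR2-, day 7 NKX2-5+, and the day 14 aMHC+ and aMHC- fractions, both sorted as CD13+/ROR2+/NKX2-5+. The day on which CD13 and ROR2 were gated for the day 7 cells is not stated in the labels, nor how many differentiations went into a fraction. RNA was sequenced as single reads of 50 bases, and the labels state more than 12 M reads per sample.

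Cardiac mesoderm leaves the primitive streak under Nodal, BMP and Wnt signals, and besides heart muscle it can give rise to endothelium, smooth muscle, fibroblasts and the proepicardium, which covers the heart as epicardium. Epicardial cells carry the factors TBX18, TCF21 and WT1 and can turn into fibroblasts and mural cells that lay down collagen and proteoglycans. Alpha-fetoprotein, fibrinogen and most apolipoproteins are made in the embryo by the yolk sac and by early liver cells, under factors of the HNF4 and FOXA families.

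The promoters of 2 of the actin genes that separated the libraries are shown because they carry a letter run that recurs in promoters of muscle genes. Each is the RefSeq window of 250 bases before to 50 after a start of the gene, on GRCh38.p14, given 5' to 3' on the gene's strand. In ACTC1 (chr15:34795500-34795799, minus strand, from -109 to -100) and ACTG2 (chr2:73892758-73893057, plus strand, from -110 to -101 and from -73 to -64) capitals mark CArG boxes, the sequence bound by serum response factor.
ACTC1: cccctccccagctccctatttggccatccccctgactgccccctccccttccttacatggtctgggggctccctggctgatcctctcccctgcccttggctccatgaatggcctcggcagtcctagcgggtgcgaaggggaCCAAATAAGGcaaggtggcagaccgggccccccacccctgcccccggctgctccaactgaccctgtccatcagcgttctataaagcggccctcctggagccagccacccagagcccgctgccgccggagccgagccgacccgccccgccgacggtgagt
ACTG2: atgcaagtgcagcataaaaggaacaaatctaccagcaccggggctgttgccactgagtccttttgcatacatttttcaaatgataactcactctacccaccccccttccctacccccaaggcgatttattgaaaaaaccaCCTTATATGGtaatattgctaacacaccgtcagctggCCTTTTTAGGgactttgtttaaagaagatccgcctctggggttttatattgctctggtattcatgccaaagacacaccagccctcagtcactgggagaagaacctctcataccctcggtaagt
A CArG box, searched on both strands, stood in windows of 1.60% of the 27305 genes with a window and of 3 of the 17 smooth muscle and sarcomere genes called higher that had one, which were ACTC1, ACTG2 and MYL7. A CArG box also stood in windows of 2 of 18 plasma protein and apolipoprotein genes not called, and of 0 of 11 called higher. Muscle genes not called were not counted, and nothing is read from these counts. These are matches of letters and not measured binding sites. The call of ACTG2 depended on the settings, as given with the smooth muscle genes.

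Levels are given as scaled FPKM, which is FPKM divided by a median-ratio factor for the library, set over 7742 genes above 1 FPKM in all 7 libraries. The factor was 0.926 for day 7 NKX2-5- and 1.10 for day 3 CD13+/ROR2+. The log2 ratio is that of the level plus 1 in day 7 NKX2-5- over the level plus 1 in day 3 CD13+/ROR2+, which understates the difference of low genes. A gene was called higher or lower in day 7 NKX2-5- when this ratio was at least 4-fold, a log2 ratio of 2, and the higher library held at least 5 scaled FPKM. Small RNA and histone symbols were left out, since they took 66.4% of the FPKM sum in day 7 NKX2-5- (MIR612 alone 51.6%) and 13.4% in day 3 CD13+/ROR2+ (MIR612 listed at 0). A level of 0 can be a failed estimate, so no fold is given against a library listed at 0. In such bulk samples, fewer cells of a type and less RNA per cell cannot be told apart.

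The sort genes were read first. NKX2-5 stood at 1.27 scaled FPKM in day 7 NKX2-5- and 0.324 in day 3 CD13+/ROR2+, with 102 in day 7 NKX2-5+, so its RNA went with the sort. ANPEP was at 1.85 in day 7 NKX2-5- against 10.9 scaled FPKM in day 3 CD13+/ROR2+, and ROR2 at 3.66 against 18.6. Both were called lower (log2 ratios -2.06 and -2.08), although the day 7 fraction carries the CD13+/ROR2+ label. MYH6 was at 46.8 scaled FPKM in day 7 NKX2-5- and 0.0702 in day 3 CD13+/ROR2+, so the fraction without NKX2-5 reporter held heart muscle RNA. The day 3 library held streak and mesoderm transcripts, such as MIXL1 at 190.1 and APLNR at 291 scaled FPKM, together with the endoderm genes SOX17 at 16.1 and FOXA2 at 3.52.

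Of 5733 genes with at least 5 scaled FPKM in either library, 353 (6.16%) were called higher in day 7 NKX2-5- and 153 (2.67%) lower, 8.83% in all, so 69.8% of the calls were higher. Counts by list below stand beside these shares of 6.16% and 2.67%. Only list members with at least 5 scaled FPKM in either library could be called. Where not given with a list, they numbered 11 for collagen processing, 18 for matrix glycoproteins and 8 for matrix proteases. For fibroblast and mural genes they were 7, smooth muscle 9, sinus venosus 4, hepatic enzymes 3, epithelial 7 and cardiac transcription factors 9. For streak genes they were 20, pluripotency 8, IGF 10, annexins 13, neural 4, housekeeping 11, immediate early 8 and cell cycle 14. The median log2 ratio of all 5733 was -0.03. The split depended on the scaling. With each library brought to a sum of 1000000 over all symbols, where MIR612 takes over a large part of one sum, 329 were higher and 2117 lower (13.5% higher) and the median of all genes was -1.35. With FPKM as deposited, the median of all genes was -0.31 and 62.8% of the calls were higher. Of the 353 higher genes, 197 (55.8%) had the highest level of all 7 libraries in day 7 NKX2-5-, 69 in day 7 NKX2-5+ and 57 in day 14 aMHC-. Over all 5733 genes the share highest in day 7 NKX2-5- was 14.4%. Of the 153 lower genes, 114 (74.5%) were highest in day 3 CD13+/ROR2+. Genes were called by their level in these same libraries, which favours both shares, and nothing is read from them.

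**Figure D1:**
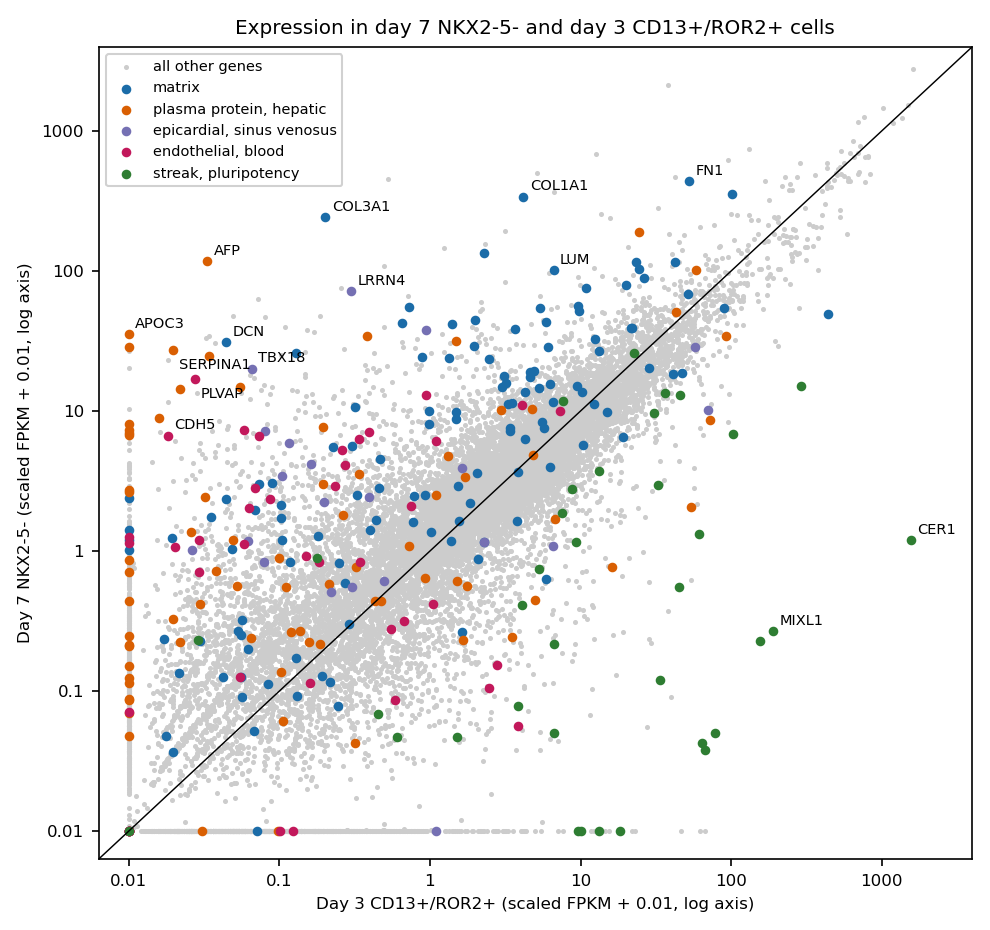
Level of each gene in day 7 NKX2-5- cells (vertical) against day 3 CD13+/ROR2+ cells (horizontal), both as scaled FPKM plus 0.01 on log axes, 1 library each, with 5 sets of list genes in colour and the line of equal levels. AFP, COL3A1, DCN, TBX18 and PLVAP lie far above the line near the left edge, and CER1 and MIXL1 far below it at the right.

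Matrix genes were among the abundant transcripts that set the day 7 NKX2-5- library apart from day 3 CD13+/ROR2+. Of 11 fibrillar collagen genes, 4 were called higher and 0 lower, with a median log2 ratio of 0.82, and of 17 network and associated collagens 5 were higher and 0 lower, with a median of 1.48. In those lists 7 and 8 genes reached 5 scaled FPKM. COL3A1, the chain of type III collagen of soft tissue, stood at 242 scaled FPKM in day 7 NKX2-5- and 0.192 in day 3 CD13+/ROR2+, a log2 ratio of 7.67. Elsewhere COL3A1 was listed at 0 in hESC, at 0.136 in day 3 CD13-/ROR2-, 21.0 in day 7 NKX2-5+, 179 in day 14 aMHC+ and 335 in day 14 aMHC-. It was thus near absent in the 3 libraries up to day 3 and reached its highest level in a day 14 fraction.

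COL1A1, the main chain of type I collagen, was at 340.3 scaled FPKM in day 7 NKX2-5- against 4.17 in day 3 CD13+/ROR2+, 81.6-fold higher, and no other library reached its day 7 NKX2-5- level. Its partner chain COL1A2 differed far less, with 103 against 24.6 scaled FPKM (log2 ratio 2.02). COL5A2, which lies next to COL3A1 in the genome with no protein-coding gene between, went the other way at 18.7 against 47.0 scaled FPKM (log2 ratio -1.28, not called). Cartilage-type COL2A1 was at 42.4 in day 7 NKX2-5- and 0.645 in day 3 CD13+/ROR2+, but its highest level, 201 scaled FPKM, was in day 7 NKX2-5+.

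The basement membrane chains COL4A1 and COL4A2, a neighbouring pair, stood at 52.0 and 43.2 scaled FPKM in day 7 NKX2-5- against 9.77 and 5.88 in day 3 CD13+/ROR2+. COL6A3, a chain of the beaded filaments around cells, had 25.9 against 0.119 scaled FPKM. Its partners were on earlier, COL6A1 at 115 against 42.2 (not called) and COL6A2 at 75.6 against 10.8 scaled FPKM. COL18A1, a collagen of vessel and epithelial basement membranes, had 54.1 against 5.41 scaled FPKM. At equal sums over all symbols COL1A2, COL4A1, COL4A2, COL6A2 and COL18A1 were no longer called.

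Of 18 genes that modify and process collagen, 5 were called higher and 1 lower (median log2 ratio 0.53, but -0.28 at equal sums over all symbols). The cross-linking enzymes LOXL1, LOXL2 and LOX were at 44.7, 23.4 and 5.50 scaled FPKM in day 7 NKX2-5- against 1.98, 2.46 and 0.219 in day 3 CD13+/ROR2+. PCOLCE, an enhancer of the procollagen C-proteinase, had 38.3 against 3.64 scaled FPKM, while its relative PCOLCE2 was the 1 lower gene at 0.625 against 5.92. The proteinase itself, BMP1, had 8.05 against 0.975 scaled FPKM. The hydroxylase genes P4HA1, at 5.73 against 10.4, and PLOD2, at 7.51 against 5.71 scaled FPKM, were within the limits.

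Of 12 proteoglycan genes, 4 were called higher in day 7 NKX2-5- and 0 lower, among them members of the small leucine-rich family that coats collagen fibrils. Lumican (LUM) was at 101 scaled FPKM in day 7 NKX2-5- and 6.63 in day 3 CD13+/ROR2+ (log2 ratio 3.74). It was listed at 0 in hESC, and at 0.0228 in day 3 CD13-/ROR2-, 4.83 in day 7 NKX2-5+, 5.23 in day 14 aMHC+ and 5.82 in day 14 aMHC-, so day 3 CD13+/ROR2+ held the second highest level. Decorin (DCN), the gene beside LUM, was at 31.1 scaled FPKM in day 7 NKX2-5-, 0.0346 in day 3 CD13+/ROR2+, and between 0 and 1.86 in the 5 others. Biglycan (BGN) had 28.9 against 1.94 and the large proteoglycan versican (VCAN) 116 against 23.5 scaled FPKM, VCAN with a higher level, 183, in day 7 NKX2-5+. The list median was 0.40, and 6 members stayed under 5 scaled FPKM in both libraries, among them osteoglycin (OGN) at 0.310 against 0.0465 and PRELP at 0.256 against 1.61. Fibromodulin (FMOD) was not called, at 6.26 against 4.24 scaled FPKM.

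Of 27 matrix glycoproteins, 9 were called higher and 1 lower, with a median log2 ratio of 1.41 (0.38 at equal sums over all symbols). Fibronectin (FN1) was at 441 scaled FPKM in day 7 NKX2-5- against 52.7 in day 3 CD13+/ROR2+. The CCN family genes CTGF and CYR61, which answer to YAP and to TGF-beta, were at 135 and 41.5 against 2.26 and 1.40 scaled FPKM. Nidogen-2 (NID2), a linker of basement membranes, had 55.2 against 0.716, thrombospondin-1 (THBS1) 23.8 against 1.33, and TGFBI 10.8 against 0.308 scaled FPKM. Fibrillin-1 (FBN1), of elastic microfibrils, was at 9.92 against 0.980, whereas fibrillin-2 (FBN2) was at 18.5 against 41.4 scaled FPKM and not called. Microfibril protein MFAP4 was the lower gene, at 49.1 scaled FPKM in day 7 NKX2-5- against 441 in day 3 CD13+/ROR2+, its highest library. Periostin (POSTN) remained at 3.02 against 0.0632 scaled FPKM and elastin (ELN) at 0.0685 against 0.236, under the minimum in both.

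Of 11 laminins 5 reached 5 scaled FPKM in either library and 2 were higher (list median log2 ratio 0.55). They were LAMC1 with 56.1 against 9.63 and LAMB2 with 15.9 against 3.17 scaled FPKM. Neither was called at equal sums over all symbols, and LAMB2 was also not called with FPKM as deposited or at equal sums without small RNA. None of 16 matrix proteases and inhibitors was called, although their median was 0.98 (-0.09 at equal sums over all symbols). Gelatinase MMP2 came nearest, at 79.2 scaled FPKM in day 7 NKX2-5- against 19.98 in day 3 CD13+/ROR2+ (log2 ratio 1.93). Of 17 integrins 7 reached 5 scaled FPKM in either library and 3 were higher, with a list median of 0.18. They were ITGA1, a collagen and laminin receptor chain (24.2 against 0.877 scaled FPKM), ITGAV and ITGA3, the last pair called neither with FPKM as deposited nor at equal sums over all symbols. The fibronectin receptor chain ITGA5 was at 20.1 against 28.4 scaled FPKM and not called.

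**Figure D2:**
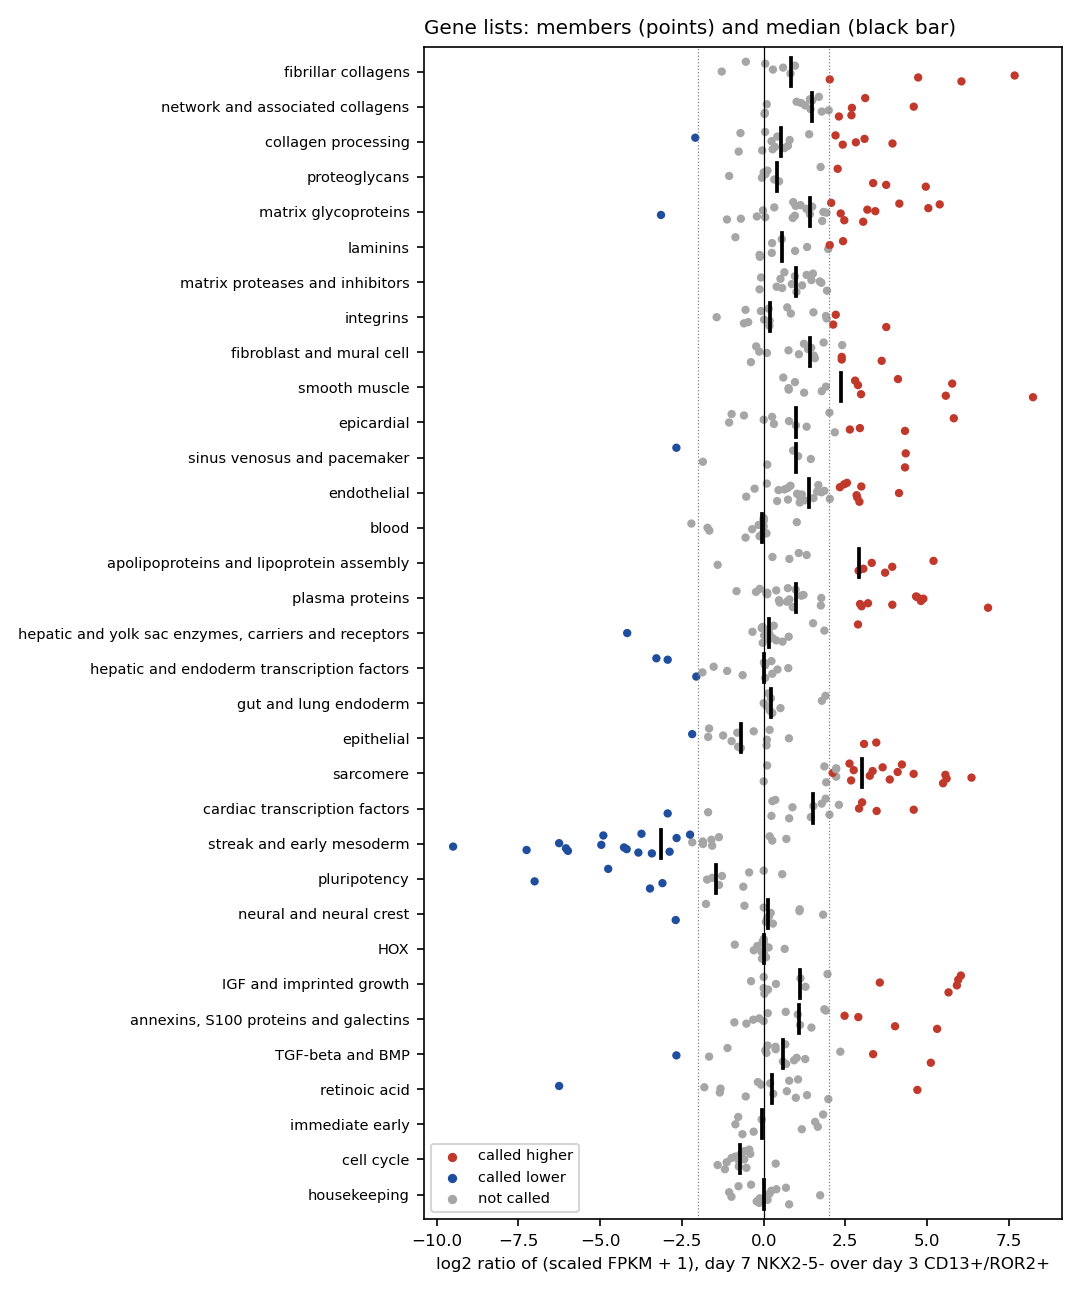
Log2 ratio of (scaled FPKM plus 1), day 7 NKX2-5- over day 3 CD13+/ROR2+, for each member of the gene lists (points, coloured by call) with the list median (black bar) and the 4-fold limits (dotted). Sarcomere and apolipoprotein lists have medians of 3.00 and 2.90, streak and early mesoderm genes a median of -3.15, and housekeeping genes one of -0.00 (-1.41 at equal sums over all symbols).

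Genes of fibroblasts and mural cells were only partly on. Of 16, 3 were called higher and 0 lower, with a median log2 ratio of 1.40. PDGFRB, the receptor of pericytes and epicardium-derived mural cells, was at 26.2 scaled FPKM in day 7 NKX2-5- against 1.23 in day 3 CD13+/ROR2+, and between 1.09 and 5.40 in day 7 NKX2-5+ and the day 14 fractions. THY1 had 18.1 against 2.66 and the pericyte gene RGS5 8.52 against 0.823 scaled FPKM, RGS5 with higher levels in day 7 NKX2-5+ (12.7) and on day 14. The mesenchymal factor PRRX1 was at 4.28 scaled FPKM in day 7 NKX2-5- and listed at 0 in day 3 CD13+/ROR2+. PDGFRA, at 9.00 against 12.1, and vimentin (VIM), at 418 against 247 scaled FPKM, were within the limits, and the fibroblast gene FAP was at 0.0697 and listed at 0 on day 3.

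Smooth muscle genes had a median log2 ratio of 2.35, and 7 of 14 were called higher. ACTA2, smooth muscle actin, had the largest ratio of any called gene (log2 8.23), at 454 scaled FPKM in day 7 NKX2-5- and 0.515 in day 3 CD13+/ROR2+. Its level was higher still, 663, in day 7 NKX2-5+, and was 331 in day 14 aMHC+ and 337 in day 14 aMHC-. TAGLN (155 against 2.30 scaled FPKM), CNN1 (28.0 against 2.68), CALD1 (79.6 against 9.94) and DES (17.2 against 0.0574) were also higher. TPM1 was called higher too, at 2120 against 38.1 scaled FPKM, and made up most of the list sum of 3021 in day 7 NKX2-5-. It stood at 2168 in day 7 NKX2-5+, 2918 in day 14 aMHC+ and 2138 in day 14 aMHC-. ACTG2 was called higher as well, but not with a pseudocount of 5, a minimum of 20 scaled FPKM or at 8-fold. The myosin of mature smooth muscle, MYH11, was at 1.48 against 0.0515 scaled FPKM, under the minimum. Several of these genes are also used by early heart muscle. Reads of the actin genes ACTA1, ACTA2, ACTC1 and ACTG2 are alike and could have been split either way.

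Of 15 epicardial genes in the table, 4 were called higher in day 7 NKX2-5- and 0 lower, with a median log2 ratio of 0.98. The other 11 were not called, 10 of them under 5 scaled FPKM in both libraries. TBX18 was at 20.1 scaled FPKM in day 7 NKX2-5- and 0.0560 in day 3 CD13+/ROR2+ (log2 ratio 4.32). It was listed at 0 in hESC and day 3 CD13-/ROR2-, and at 1.10 in day 7 NKX2-5+, 0.208 in day 14 aMHC+ and 0.203 in day 14 aMHC-, so no other library passed 1.10. LRRN4, a gene of mesothelium, was at 71.6 against 0.291 scaled FPKM, and also at 54.7 in day 14 aMHC+ and 57.1 in day 14 aMHC-. TCF21, the factor of epicardium-derived fibroblasts, was at 5.87 against 0.107, and basonuclin-1 (BNC1) at 7.22 against 0.0708 scaled FPKM.

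The list was not on as a whole. WT1 was at 4.20 scaled FPKM in day 7 NKX2-5- against 0.152 in day 3 CD13+/ROR2+, below the minimum level. ALDH1A2, a retinoic acid enzyme of epicardium, was at 1.01 against 0.0162, UPK3B at 0.826 against 0.0691, and MSLN and UPK1B were listed at 0 in day 7 NKX2-5-. Keratin KRT19 was at 28.8 against 57.8 scaled FPKM. Of 8 sinus venosus and pacemaker genes, 2 were higher: TBX18 and the pacemaker channel HCN4, at 38.1 against 0.930 scaled FPKM but 57.3 in day 7 NKX2-5+. SHOX2 was at 0.604 against 0.488 and TBX3 at 1.07 against 6.52 scaled FPKM, neither called, and BMP4 was called lower at 10.2 against 69.9.

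Of 28 endothelial genes 8 were called higher in day 7 NKX2-5- and 0 lower, with a median log2 ratio of 1.38, and 17 were under 5 scaled FPKM in both libraries. PLVAP, of the diaphragms of fenestrated endothelium, was at 16.9 scaled FPKM in day 7 NKX2-5- and 0.0174 in day 3 CD13+/ROR2+ (log2 ratio 4.14). Its level was 2.76 in day 7 NKX2-5+ and at most 0.172 in the other 4 libraries. VE-cadherin (CDH5) was at 6.66 against 0.00814, CD34 at 7.29 against 0.0483, endoglin (ENG) at 13.1 against 0.938 and the junction gene ESAM at 6.61 against 0.0630 scaled FPKM. CDH5, CD34, ENG, ESAM and PLVAP were each at 0.271 or below in both day 14 fractions, which were sorted as NKX2-5+. The day 14 levels do not stand for all NKX2-5+ cells. In day 7 NKX2-5+ the 8 called genes had a median of 2.55 scaled FPKM, against 6.87 in day 7 NKX2-5-.

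Of the 8 called members 6 were highest in day 7 NKX2-5-, ECSCR among them, while S1PR1 and LMO2 were higher in another library. S1PR1 was at 6.30 scaled FPKM in day 7 NKX2-5- and 0.329 in day 3 CD13+/ROR2+, but at 16.5 in day 7 NKX2-5+, and LMO2 at 5.28 and 0.251, but at 53.0 in day 14 aMHC-. The VEGF receptor KDR, which marks mesoderm before endothelium, hardly differed at 10.0 against 7.29 scaled FPKM. Several defining endothelial genes were low: PECAM1 was at 1.19 against 0.0193, TIE1 at 2.02 against 0.0531, CLDN5 at 1.24 and listed at 0 on day 3, and VWF at 0.407 against 1.04 scaled FPKM. The 5 genes CDH5, CD34, ENG, ESAM and PLVAP summed to well under the level of COL3A1 alone. Of 15 blood genes none reached 5 scaled FPKM in either library, and the list summed to 1.94 in day 7 NKX2-5- and 10.7 in day 3 CD13+/ROR2+. PTPRC, GATA1, SPI1, HBZ, HBG1 and HBA1 were listed at 0 in day 7 NKX2-5-.

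Secreted proteins of liver and yolk sac were followed in 2 lists. Of 11 apolipoprotein and lipoprotein assembly genes 6 were called higher and 0 lower (median log2 ratio 2.90), and of 27 plasma protein genes 9 were higher and 0 lower (median 0.98, short of the list limit of 1). In these lists 3 and 17 genes were under 5 scaled FPKM in both libraries. AFP was at 118 scaled FPKM in day 7 NKX2-5- and 0.0231 in day 3 CD13+/ROR2+ (log2 ratio 6.86). It was at 0.0944 in hESC, 0.0475 in day 3 CD13-/ROR2-, 21.7 in day 7 NKX2-5+, 0.189 in day 14 aMHC+ and 0.0972 in day 14 aMHC-, so it was above 1 scaled FPKM in the day 7 fractions only. The whole apolipoprotein list summed to 429 scaled FPKM in day 7 NKX2-5-, 179 in day 3 CD13+/ROR2+ and 207 in day 7 NKX2-5+, and the plasma protein list to 297, 10.7 and 71.7 in the same libraries.

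The protease inhibitor SERPINA1 had 27.3 scaled FPKM in day 7 NKX2-5- against 0.00956 in day 3 CD13+/ROR2+, vitronectin (VTN) 24.8 against 0.0242, and the retinol carrier RBP4 34.6 against 0.373. Fetuin (AHSG) and transthyretin (TTR) were at 28.5 and 6.96 scaled FPKM and listed at 0 on day 3. The 3 fibrinogen chains FGA, FGB and FGG, which lie side by side in the genome, were at 14.4, 6.70 and 8.11 scaled FPKM in day 7 NKX2-5-, against 0.0120 for FGA and 0 for the others in day 3 CD13+/ROR2+. The same held for the neighbours APOA1, APOC3 and APOA4, at 31.4, 35.5 and 7.26 scaled FPKM in day 7 NKX2-5- against 1.48 for APOA1 and 0 for the others. Each of these fibrinogen and apolipoprotein genes was called higher.

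APOB, the structural protein of large lipoproteins, had 14.9 against 0.0447 scaled FPKM, and APOC2 8.93 against 0.00583. APOA2 was the most abundant at 189 scaled FPKM in day 7 NKX2-5-, with 24.5 already in day 3 CD13+/ROR2+ (not called at equal sums over all symbols). In contrast, the neighbours APOE and APOC1 were present in both libraries and not called, at 101 against 58.2 and 34.5 against 93.2 scaled FPKM. Albumin (ALB), which neighbours AFP, reached 0.849 scaled FPKM in day 7 NKX2-5- and was listed at 0 in day 3 CD13+/ROR2+. Transferrin (TF) was at 2.43 against 0.0220 scaled FPKM, and GC, the vitamin D carrier, was listed at 0 in day 7 NKX2-5- and at 0.0876 on day 3.

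Of 17 genes for enzymes, carriers and receptors of liver and yolk sac 1 was higher and 1 lower, with a median log2 ratio of 0.18. The endocytic receptor LRP2 was at 7.74 against 0.185 scaled FPKM, and the urea cycle enzyme ASS1 at 2.07 in day 7 NKX2-5- against 54.3 in day 3 CD13+/ROR2+. CPS1, the first urea cycle enzyme, was at 4.86 against 4.81, FABP1 at 2.62 and listed at 0 on day 3, and the bile salt transporter SLC10A1 at 0.0515 against 0.0964 scaled FPKM. Cubilin (CUBN), a yolk sac partner of LRP2, was at 0.428 against 0.465.

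Of 15 transcription factors of liver and endoderm, 5 reached 5 scaled FPKM in either library. None was called higher and 3 were called lower, with a median log2 ratio of 0.01. HNF4A was at 0.599 scaled FPKM in day 7 NKX2-5- and 1.497 in day 3 CD13+/ROR2+, and FOXA2 at 0.234 and 3.52. Among the lower genes were SOX17 (0.760 against 16.1 scaled FPKM) and GATA6 (8.55 against 72.0). GATA4, shared by heart and endoderm, was at 50.9 against 43.0 scaled FPKM. No gut or lung endoderm gene of 9 reached 5 scaled FPKM, with TFF1 at 2.70 and listed at 0 on day 3, and SOX9 at 3.55 against 0.326.

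Epithelial genes divided. Keratins KRT8 and KRT18, of simple epithelia, were called higher, at 282 and 470.1 scaled FPKM in day 7 NKX2-5- against 32.7 and 42.4 in day 3 CD13+/ROR2+, and both were higher still in the day 14 fractions. The list median was nevertheless -0.70. E-cadherin (CDH1) was at 1.38 against 2.86 and EPCAM at 5.52 against 10.2 scaled FPKM, within the limits or under the minimum, and the splicing factor ESRP1 was lower at 0.619 against 6.37. The neural and neural crest list had 0 higher and 1 lower of 12 genes, OTX2 at 4.41 against 33.9 scaled FPKM. No HOX gene of 15 reached the minimum.

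**Figure D3:**
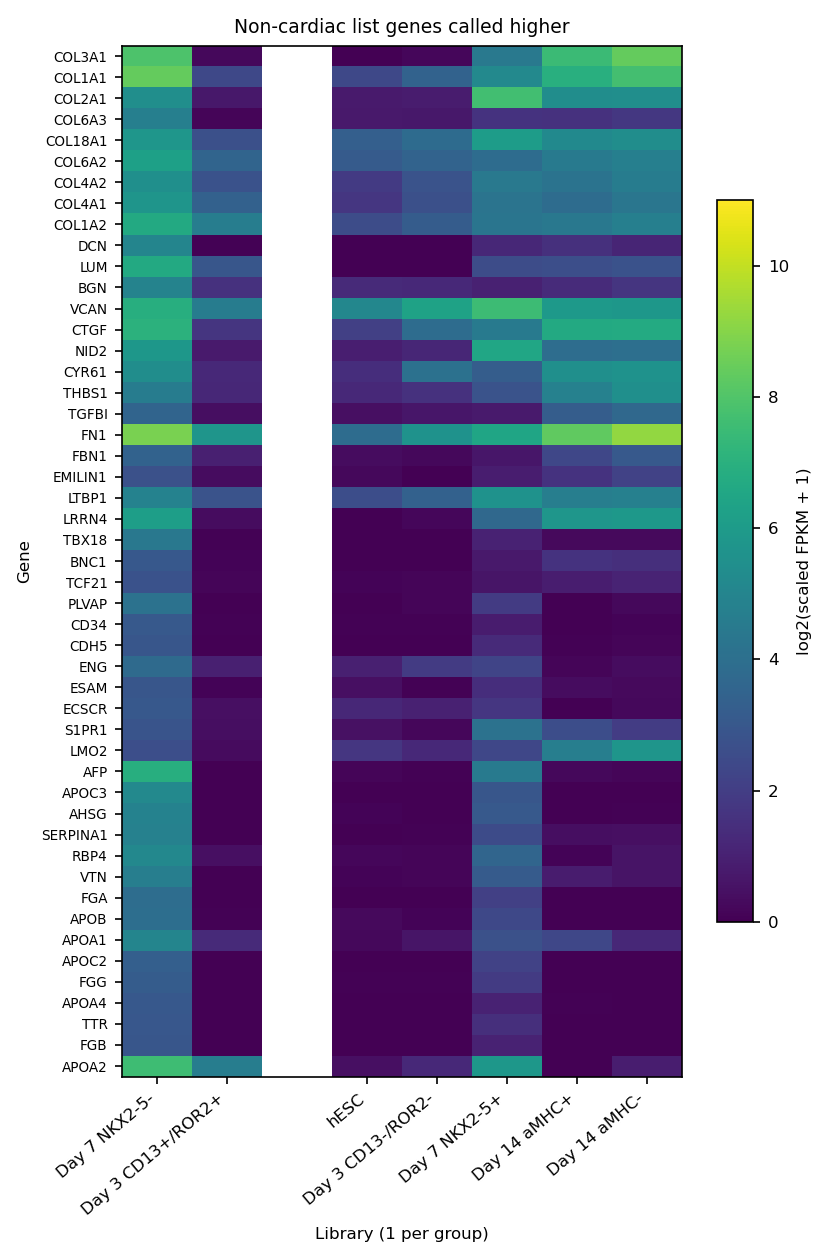
log2(scaled FPKM plus 1) of the matrix, epicardial, endothelial and plasma protein genes called higher in day 7 NKX2-5-, with that library and day 3 CD13+/ROR2+ on the left and the 5 other libraries on the right. AFP, APOB and the fibrinogen genes stand out in the day 7 columns only, while COL3A1, FN1 and LRRN4 are bright on day 14 as well.

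Heart muscle transcripts were also higher in this fraction than on day 3. Of 22 sarcomere genes 15 were called higher and 0 lower, with a list median log2 ratio of 3.00, and the other 7 were under 5 scaled FPKM in both libraries. The list summed to 1549 scaled FPKM in day 7 NKX2-5-, 37.2 in day 3 CD13+/ROR2+ and 9027 in day 7 NKX2-5+. Cardiac actin (ACTC1) was at 501 against 5.14 scaled FPKM, the atrial light chain MYL7 at 366 against 6.61 and troponin T (TNNT2) at 194 against 3.15. None of the 15 was highest in day 7 NKX2-5-, and in day 7 NKX2-5+ they stood 2.90 to 61.7 times higher than in day 7 NKX2-5- (median 7.01). The part of this heart muscle RNA in the other differences was not tested.

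Among 17 cardiac transcription factors, 4 were called higher and 1, GATA6, lower (median log2 ratio 1.52). TBX5, of the first heart field and also of the proepicardium, was at 23.2 scaled FPKM in day 7 NKX2-5- and 0.00812 in day 3 CD13+/ROR2+. HAND2 had 12.3 against 0.217, TBX20 41.9 against 4.69 and the muscle methyltransferase SMYD1 7.09 against 0.00610 scaled FPKM. TBX5, TBX20 and SMYD1 were higher in day 7 NKX2-5+ (67.9, 206 and 116). HAND1, an early mesoderm and left ventricle factor, was at 32.2 in day 7 NKX2-5- against 107 scaled FPKM in day 3 CD13+/ROR2+ and not called.

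The day 3 programme was nearly gone. Of 24 streak and early mesoderm genes 15 were called lower and 0 higher, with a median log2 ratio of -3.15. CER1, a secreted Nodal, BMP and Wnt inhibitor, was at 1.18 scaled FPKM in day 7 NKX2-5- against 1575 in day 3 CD13+/ROR2+ (log2 ratio -9.49). MIXL1 was at 0.258 against 190.1, EOMES at 0.0327 against 64.4, LHX1 at 0.0278 against 66.8 and the retinoic acid degrading enzyme CYP26A1 at 0.0398 against 78.3 scaled FPKM. MESP1, MESP2 and GSC were at 9.69, 13.2 and 18.3 scaled FPKM in day 3 CD13+/ROR2+ and listed at 0 in day 7 NKX2-5-.

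The apelin receptor APLNR remained at 15.03 scaled FPKM in day 7 NKX2-5-, against 291 in day 3 CD13+/ROR2+ and 3.55 in day 7 NKX2-5+. The mesenchymal factor SNAI2 was alike in the pair, at 25.9 against 22.7 scaled FPKM, with 3.87 in day 7 NKX2-5+. Of 12 pluripotency genes 4 were lower and 0 higher (median log2 ratio -1.47). The Nodal co-receptor TDGF1 was at 0.218 against 155 and L1TD1 at 1.31 against 61.2 scaled FPKM, while POU5F1 was listed at 0 in day 7 NKX2-5- and at 10.1 on day 3. LIN28A, at 13.1 against 45.7 scaled FPKM, was not called.

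**Figure D4:**
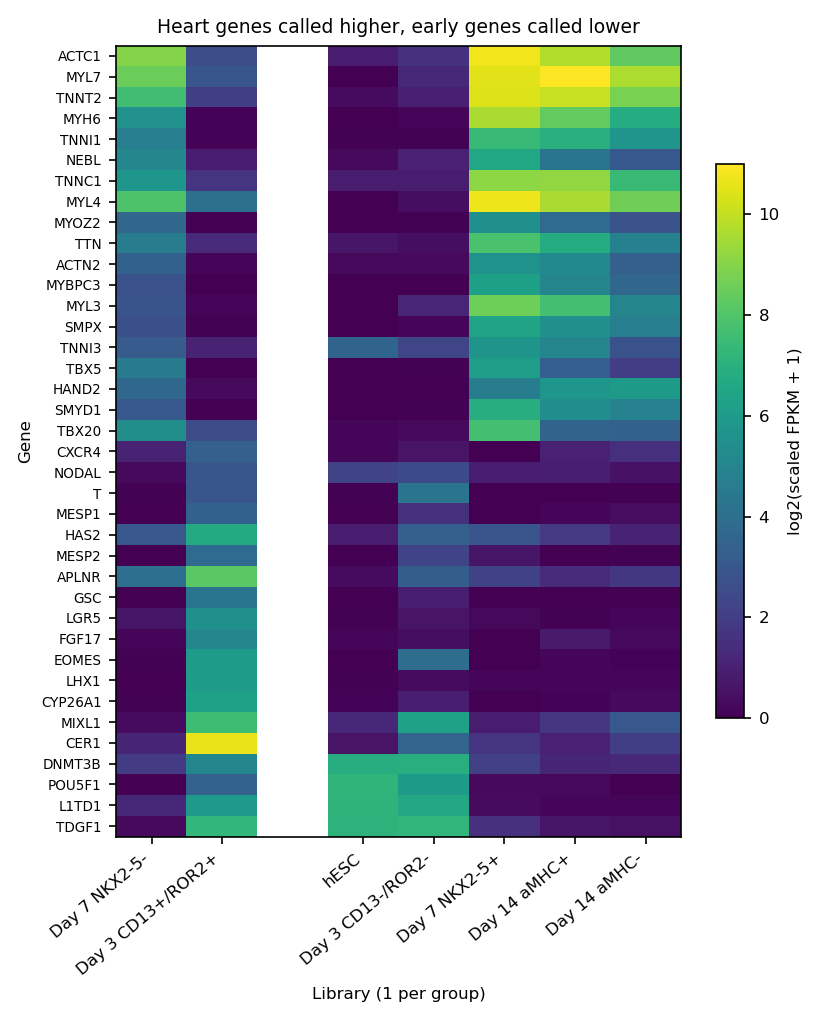
log2(scaled FPKM plus 1) of heart genes called higher (upper rows) and of streak, mesoderm and pluripotency genes called lower (lower rows), with day 7 NKX2-5- and day 3 CD13+/ROR2+ on the left. Most heart genes are brightest in day 7 NKX2-5+ or on day 14, and most early genes are dark in both day 7 columns, with APLNR at 15.03 scaled FPKM in day 7 NKX2-5- an exception.

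Growth factor genes gave some of the most abundant differences. Of 15 IGF and imprinted growth genes 5 were called higher and 0 lower, with a median log2 ratio of 1.12 (0.00 at equal sums over all symbols). The fetal growth factor IGF2 was at 685 scaled FPKM in day 7 NKX2-5- and 12.7 in day 3 CD13+/ROR2+, with 37.9 in day 7 NKX2-5+, 241 in day 14 aMHC+ and 274 in day 14 aMHC-. Its reads may also be shared with the readthrough gene INS-IGF2. DLK1, an imprinted Notch-like ligand, had 145 against 1.24, and the binding proteins IGFBP3 62.7 against 0.0622 and IGFBP7 75.8 against 0.246 scaled FPKM. H19, which neighbours IGF2 and is expressed from the other parental copy, was at 1.36 against 0.0824, and MEG3 was listed at 0 in both libraries.

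In the TGF-beta and BMP list 12 of 17 genes reached 5 scaled FPKM in either library. Of the list 2 genes were higher and 1 lower (median log2 ratio 0.59, but -0.77 at equal sums over all symbols). TGFB2, a ligand of heart cushion and epicardium, was at 34.3 against 0.0243 and BMP5 at 32.6 against 2.30 scaled FPKM, while BMP4 was lower as given above. Annexins, S100 proteins and galectins had 4 higher of 16 and a median of 1.08 (0.00 at equal sums over all symbols), led by ANXA1 with 66.2 against 0.704 scaled FPKM and S100A10 with 739 against 132. Of 16 retinoic acid genes, 7 reached 5 scaled FPKM in either library. RBP4 was the 1 higher and CYP26A1 the 1 lower, with a list median of 0.24 (-0.62 at equal sums over all symbols). Over all genes of that level 6.16% were higher and 2.67% lower, and nothing is read from these counts. Apart from these lists, the 15 largest ratios included NPPB, the B-type natriuretic peptide, at 109 scaled FPKM in day 7 NKX2-5- and 0.488 in day 3 CD13+/ROR2+. Among the 15 lowest were the neuropeptides NTS (0.615 against 53.8 scaled FPKM) and GAL (0.363 against 37.9).

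Housekeeping genes had a median log2 ratio of -0.00 with none of 14 called (-1.41 at equal sums over all symbols, where the median of all genes was -1.35). Their ratios ran from -1.06 to 1.73, and ACTB was at 2784 against 1623 and RPLP0 at 103 against 206 scaled FPKM. Immediate early genes, which respond to handling, had a median of -0.06 with none of 9 called and ratios up to 1.82. Of 15 cell cycle genes none was called, and their median was -0.74, with MKI67 at 10.7 scaled FPKM in day 7 NKX2-5- and 25.6 in day 3 CD13+/ROR2+. CDK1 alone among them was above 0, at 5.23 against 3.83.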

How the data were processed

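RNA of 7 sorted or undifferentiated cell populations was sequenced, 1 library per group. The authors deposited 1 table of FPKM values, which are fragments scaled by transcript length and library total. Cufflinks and the build hg19 were used, per the submitters' processing notes. Not given in the sources used here are versions, the aligner, the annotation and the treatment of shared reads, and the kit named in the labels does not mark strand. Libraries were grouped by their labels.

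Of 23262 genes with values (106 blank rows were left out), 1683 small RNA and histone symbols (MIR, SNOR, SCARNA, RNU, HIST) were dropped and 21579 kept. Columns were divided by median-ratio factors set on the 7742 genes that passed 1 FPKM in every library, and log2 ratios were taken with a pseudocount of 1. A call needed a 4-fold ratio and 5 scaled FPKM in the higher library. A list counted as different at a median of 1 on the log2 scale. With 1 library per group no model was fitted. Depth could not be recovered: the most frequent ratio of low values held only 1.46 times the genes of its neighbours, so values near or under 1 scaled FPKM rest on an unknown number of reads.

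The 34 lists hold 513 genes, 512 of them in the table (SCX is not used here), and 133 listed genes were called. Members and lists were chosen with earlier results of these data known, so no list is independent evidence of its direction. Named genes were the members of the matrix, stromal, epicardial, endothelial and hepatic lists, up to 6 called members with the largest ratios of each other list (or the 2 largest ratios), the sort genes, and the 15 highest and 15 lowest called genes not listed at 0. Other genes were named after their values were seen: INS-IGF2, and in the remaining lists those given as not called. A few genes are not reported here. Alternatives were other pseudocounts, minimum levels, scalings, a larger fold, and leaving out genes listed at 0. The scaling and the calls were run on simulated data with large changes, as many up as down, in well expressed genes only. That run says nothing of low genes, of calls near the limits or of an uneven split. Promoters, gene order and gene names came from RefSeq tables of GRCh38.p14. Python 3.11.15, NumPy 2.4.6, pandas 2.3.3 and matplotlib 3.10.9 were used.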

Additional observations from a re-analysis of the deposited data

How the results depend on the processing

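The 353 higher and 153 lower genes became 129 and 57 with a pseudocount of 5, 142 and 58 with a minimum of 20 scaled FPKM, and 161 and 70 at 8-fold. At a sum of 1000000 over all symbols there were 329 and 2117. The other alternatives gave 300 to 431 higher and 134 to 186 lower genes. No named gene or list median that was called changed sign under any of the 10 alternatives. Of 140 named genes called, 67 were called under each alternative that gave them a value. A sum of 1000000 over all symbols ended the call of 26, among them FN1, COL1A2, COL4A1, COL4A2, COL6A2, COL18A1, VCAN, APOA2, KRT8, LAMC1, LAMB2 and TBX20. LAMB2, COL1A2 and LTBP1 lost the call with FPKM as deposited and at equal sums without small RNA, and ITGA3, ITGAV, LMO2, SMPX and TNNI3 with FPKM as deposited. TCF21, BNC1, CDH5, CD34, ENG and ESAM were not called with a pseudocount of 5.

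With a pseudocount of 0.1 the list medians passed 1 for fibrillar collagens (1.60), proteoglycans (1.10), laminins (1.41), matrix proteases (1.31), epicardial (2.45), sinus venosus (2.11), plasma protein (2.67), gut and lung (1.27) and, downward, epithelial genes (-1.003). With a pseudocount of 5 they fell short for network collagens (0.54), matrix glycoproteins (0.79), fibroblast and mural (0.65), endothelial (0.50), cardiac transcription factor (0.65), IGF (0.33) and annexin and S100 genes (0.69). At a sum of 1000000 matrix glycoproteins (0.38), fibroblast and mural (0.79), IGF (0.00) and annexin and S100 genes (0.0048) fell short, and plasma proteins (1.15), hepatic transcription factors (-1.21), epithelial (-2.19), immediate early (-1.48), cell cycle (-2.203), housekeeping (-1.41) and sort genes (-1.65) passed, where the median of all genes was -1.35. Other settings moved medians across 1 only slightly: FPKM as deposited, annexin and S100 genes 0.86; equal sums without small RNA, epicardial 1.04; factors from the 2 libraries alone, proteases 1.01, epicardial 1.00, sinus venosus 1.00 and plasma proteins 1.02; genes listed at 0 left out, epicardial 1.31.

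No paired analysis was possible because each group has 1 library and no result comes from a test. Nor was there a library to leave out. Low levels are the main limit: a ratio against a level near 0 depends on the pseudocount, and the depth of day 7 NKX2-5- is unknown.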

Other observations

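The families given here were chosen after their values were seen, and their counts support nothing beyond these 2 libraries. Among all genes that reached 5 scaled FPKM in either library, 6.16% were higher and 2.67% lower. Their median log2 ratio was -0.03, and the median of all genes was -1.35 at equal sums over all symbols. Families were not followed under the other scalings. All 7 APOBEC3 cytidine deaminase genes, which edit viral and retroelement DNA, were below 0 on the log2 ratio scale. The 4 that reached 5 scaled FPKM were called lower. The others were under the minimum in both libraries, APOBEC3A and APOBEC3H near 0 in both. APOBEC3G was at 0.971 scaled FPKM in day 7 NKX2-5- against 26.0 in day 3 CD13+/ROR2+, and APOBEC3C at 1.97 against 18.6. Day 7 NKX2-5+ held APOBEC3G at 0.508 and APOBEC3C at 6.40 scaled FPKM. Of 18 glycolysis genes 17 reached 5 scaled FPKM in either library. Called lower in day 7 NKX2-5- were 4 and higher 0, and 14 of the 18 were below 0 (median -0.99). Lactate dehydrogenase A (LDHA) was at 31.6 against 195, the pyruvate kinase PKM2 at 54.3 against 283 and the glucose transporter SLC2A3 at 13.3 against 96.1 scaled FPKM. GAPDH, at 1235 against 1359, was not called. Above 0 were 4 genes, among them PFKP at 39.9 against 14.5 and SLC2A1 at 36.5 against 18.9 scaled FPKM, none of them called. In day 7 NKX2-5+ LDHA, PKM2 and SLC2A3 were at 20.4, 93.3 and 29.0 scaled FPKM, and PFKP and SLC2A1 at 55.5 and 8.05.

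In day 7 NKX2-5- the guidance ligands SLIT2 and SLIT3 were higher, at 39.8 and 38.9 scaled FPKM. Day 3 CD13+/ROR2+ held 0.485 and 2.79, and day 7 NKX2-5+ 28.2 and 22.8. The receptor ROBO1 was at 9.95 in day 7 NKX2-5- against 30.2 in day 3 CD13+/ROR2+ and not called. Of 14 Notch pathway genes 9 reached 5 scaled FPKM in either library, and 4 were higher and 1 lower. The ligand JAG1 was at 17.9 against 1.19, and the targets HEY1 at 18.4 against 0.138 and HEYL at 7.75 against 0.310 scaled FPKM. HES4 was at 10.4 and listed at 0 on day 3, and the day 3 ligand DLL3 was lower at 0.769 against 15.1. In day 7 NKX2-5+ JAG1, HEY1, HEYL, HES4 and DLL3 were at 9.45, 4.85, 0.645, 1.77 and 0.271 scaled FPKM. The natriuretic peptide genes parted: NPPB was at 109 scaled FPKM in day 7 NKX2-5- and 182 in day 7 NKX2-5+, NPPA at 3.31 and 213.

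MIR612 took 51.6% of the FPKM sum in day 7 NKX2-5- and 26.6% in hESC, the 2 libraries whose labels carry the same index sequence, and was listed at 0 in the other 5.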
